A study of Mus musculus with 11 samples.

Results

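The DNA replication genes described here are 48 protein-coding mouse genes, named by symbol for their textbook roles at the replication fork and at the G1/S boundary. They comprise 6 subunits of the origin recognition complex, 2 licensing factors, the 6 subunits of the MCM2-7 helicase, 6 factors that switch the helicase on, 9 polymerase and primase subunits, 6 subunits of the sliding clamp and its loader, 3 subunits of the single-strand binding protein RPA, 2 enzymes that join Okazaki fragments, 1 uracil repair enzyme, 4 enzymes of nucleotide supply and 3 G1/S regulators. Each symbol matched 1 of the 39179 gene identifiers in the table. All 48 had a mean normalized count of 10 or more over the 10 libraries and were among the 15781 genes tested. The lowest number of reads behind any value was 43, for Gins3 in replicate C of the KO ESCs.

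Replication begins when the origin recognition complex, with Cdc6 and Cdt1, loads the MCM2-7 ring onto DNA in G1. In S phase, Cdc45, the GINS complex and Mcm10 convert the ring into a moving helicase, RPA coats the exposed single strand, and polymerases held by the clamp PCNA copy both strands. Transcription of many of these genes is driven by E2F factors at the G1/S boundary, and mouse ESCs, with short gap phases, are known for high levels of many of them throughout the cycle.

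The libraries came from Mettl3-KO embryoid bodies (EBs, 2 libraries lettered A and B), WT EBs (2, A and B), Mettl3-KO ESCs (3, lettered A, B and C) and WT ESCs (3, A, B and C), all of the C57BL/6 strain. Embryoid bodies are aggregates of differentiating ESCs. Mettl3 encodes the catalytic subunit of the enzyme that writes N6-methyladenosine on messenger RNA. Per the labels, EBs of both genotypes were grown unattached for 8 to 21 days in medium with serum, and ESCs of both genotypes were kept without serum in N2B27 medium with LIF, the GSK3 inhibitor CHIR99021 and the MEK inhibitor PD0325901. The EB libraries are not labelled with a day within that span, the number of independent KO clones is not given, and ESC replicate C was sequenced for a SILAC protein experiment.

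The libraries were checked against their labels first. Mettl3 had normalized counts of 138, 133 and 131 in KO ESCs, against 422, 392 and 425 in WT ESCs (log2 difference -1.62 ± 0.14 SE, limma adjusted p = 0.0123). In EBs it had 154 and 147 in KO EBs, against 399 and 368 in WT EBs (-1.34 ± 0.17 SE, limma adjusted p = 0.0143). The transcript was lower in every KO library, and its remaining reads do not tell whether they come from a functional message. The 16 pluripotency markers summed to 55225 or more in every KO ESC library and 47751 or more in every WT ESC library, and to between 25095 and 41904 in the EB libraries. The 18 endoderm markers summed to 5495 and 5601 in KO EBs, against 168275 and 169072 in WT EBs, with Afp at 0 in both KO EB libraries. The number of reads counted in genes was 3075007 for KO ESC replicate C, 3026837 for WT ESC replicate C, and between 8523027 and 15426894 for the other 8 libraries.

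Replicate C of the ESCs stood apart for the replication genes. In KO ESCs 36 of the 48 were higher in C than in the mean of A and B, with a median log2 difference of 0.54, and in WT ESCs 35 were, with a median of 0.31. Over all genes tested 44.4% and 44.1% were higher in C in KO and WT. Cyclin E1, the partner of Cdk2 at G1/S, differed most: Ccne1 had 394, 389.6 and 3241 in KO ESCs, against 543, 556 and 3258 in WT ESCs. The sum of 18 fibroblast and matrix markers ran the other way. It was 8077 in KO ESC C against 27886 and 27802 in KO ESC A and B. In WT ESC C it was 11839, against 28246 and 28061 in WT ESC A and B. Single markers went both ways. Col3a1 had 6222, 6532 and 19.4 in KO ESCs A, B and C, and 3115, 3171 and 23.1 in WT ESCs. Vim had 423, 399 and 1255 in KO ESCs, and 858, 840 and 2378 in WT ESCs. Of these 18 markers, Dcn was at 0 in KO ESC C, Lum and Postn were at 0 in WT ESC C, and none was at 0 in the other 8 libraries. Their part in the difference between C and the other letters was not tested. The size of the shift differed between genotypes for single genes, without a test: Cdc6 was 1.35 higher in C on the log2 scale in KO and 0.093 in WT, and Pola1 differed by -1.20 in KO and 0.048 in WT. Because C stood apart in both genotypes, each KO against WT comparison is given without the letter and, where the call changes, with the letter as a block, called the blocked fit here. ESC letters met the rule for pairing, a correlation between KO and WT deviations from their group means. That correlation was 0.845 and 0.828 within letters A and B, and 0.812 and 0.809 across them. The rule therefore cannot tell pairing of A and B from the shift of C. EB letters had too few pairs to decide.

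Promoters of 5 members, picked after their values were seen, are shown with E2F-type motifs marked, because E2F is the textbook regulator of the group. RefSeq promoter windows (250 bases before to 50 after the start site, build GRCm38.p6) were matched for 40 of the 48 genes. The spellings searched on both strands were TTTCCCGC, TTTCGCGC, TTTGCCGC and TTTGGCGC, of which TTTCGCGC can overlap TTTGGCGC read on the other strand. At least 1 match was found in 15 of the 40 genes (37.5%), against 704 of 27025 genes with a window (2.6%). The CCAAT box, searched as CCAAT on both strands, was found in 57.5% of the 40 genes, against 41.1% of all. The lines below give the 180 bases before the start site, 5′ to 3′ on the gene's strand, with matches in capitals. Mcm5 and Mcm6, helicase genes, hold overlapping matches and Pola1, the catalytic subunit of polymerase alpha, holds 1. Rpa1, among the lowest in KO at both stages, and Fen1, the member that was higher in every KO library at both stages, hold none of these letters in the window. The RefSeq starts used lie 60, 41, 0, 59 and 224 bases upstream of the GENCODE gene start for Mcm5, Mcm6, Pola1, Rpa1 and Fen1. Fen1 has 2 RefSeq windows, of which the one farther upstream is shown, and neither holds a match. The regions are chr8:75109329-75109508 (plus strand) for Mcm5, chr1:128359706-128359885 (minus strand) for Mcm6, chrX:93632156-93632335 (minus strand) for Pola1, chr11:75348384-75348563 (minus strand) for Rpa1 and chr19:10204394-10204573 (minus strand) for Fen1.
Mcm5: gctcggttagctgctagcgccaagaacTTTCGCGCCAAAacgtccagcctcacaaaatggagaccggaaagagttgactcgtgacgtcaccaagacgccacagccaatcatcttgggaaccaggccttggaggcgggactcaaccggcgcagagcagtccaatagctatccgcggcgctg
Mcm6: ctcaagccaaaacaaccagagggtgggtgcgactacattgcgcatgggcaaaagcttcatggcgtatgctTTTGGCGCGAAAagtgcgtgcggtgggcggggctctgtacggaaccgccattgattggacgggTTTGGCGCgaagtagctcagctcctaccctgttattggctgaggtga
Pola1: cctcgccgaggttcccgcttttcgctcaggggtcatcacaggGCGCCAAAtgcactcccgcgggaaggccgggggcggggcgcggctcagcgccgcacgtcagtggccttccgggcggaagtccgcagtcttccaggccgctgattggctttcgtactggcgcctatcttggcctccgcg
Rpa1: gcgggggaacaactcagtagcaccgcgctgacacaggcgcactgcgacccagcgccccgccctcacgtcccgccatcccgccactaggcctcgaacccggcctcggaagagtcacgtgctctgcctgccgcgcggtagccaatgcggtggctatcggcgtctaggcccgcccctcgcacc
Fen1: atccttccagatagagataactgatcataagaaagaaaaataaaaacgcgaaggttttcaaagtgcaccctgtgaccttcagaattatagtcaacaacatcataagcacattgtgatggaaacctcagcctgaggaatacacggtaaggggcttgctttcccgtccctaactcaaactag

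KO and WT ESCs were compared first. Replication transcripts were lower in KO ESCs across nearly every role, with the exceptions of the flap nuclease gene Fen1, the thymidine kinase gene Tk1, Rrm1, Pold3 and E2f1. The summed normalized count of the 48 genes was 45514, 46139.6 and 62591 in KO ESCs A, B and C, against 61475, 61945 and 80341 in WT ESCs. Within each letter the sum was 26.0%, 25.5% and 22.1% lower in KO. As a share of reads counted in genes, the 48 made up 0.542%, 0.576% and 0.733% in KO ESCs, against 0.689%, 0.728% and 0.806% in WT ESCs. The log2 difference was below 0 for 43 of the 48, with a median of -0.40, against -0.022 over all genes tested. Libraries of whole cultures cannot tell fewer cells in S phase from less RNA of these genes per cell.

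At an adjusted p under 0.05, limma without the letter called 1 of the 48, Rpa1, lower and none higher, where 2.38% of all genes were called in either direction. In that fit 17 of the 48 had an unadjusted p under 0.05, against 17.2% of all genes. The count test of edgeR likewise called Rpa1 alone (2.15% of all genes), and DESeq2 called 9 lower and 1 higher (12.4% of all genes). The blocked fit called 27 lower and 1 higher, against 15.3% of all genes lower and 14% higher. Complete separation, with every KO library below every WT library, was found for 16 of the 48 (8.78% of all genes), and with every KO library above for Fen1 and Tk1 (9.23% of all genes). Without both C libraries limma called 29 lower and 2 higher, Fen1 and Tk1 (27.9% and 27.4% of all genes). Within a letter 41, 41 and 39 of the 48 were lower in KO in A, B and C (50%, 50.6% and 49.1% of all genes). The plot of differences within each letter shows this gene by gene.

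**Figure D1:**
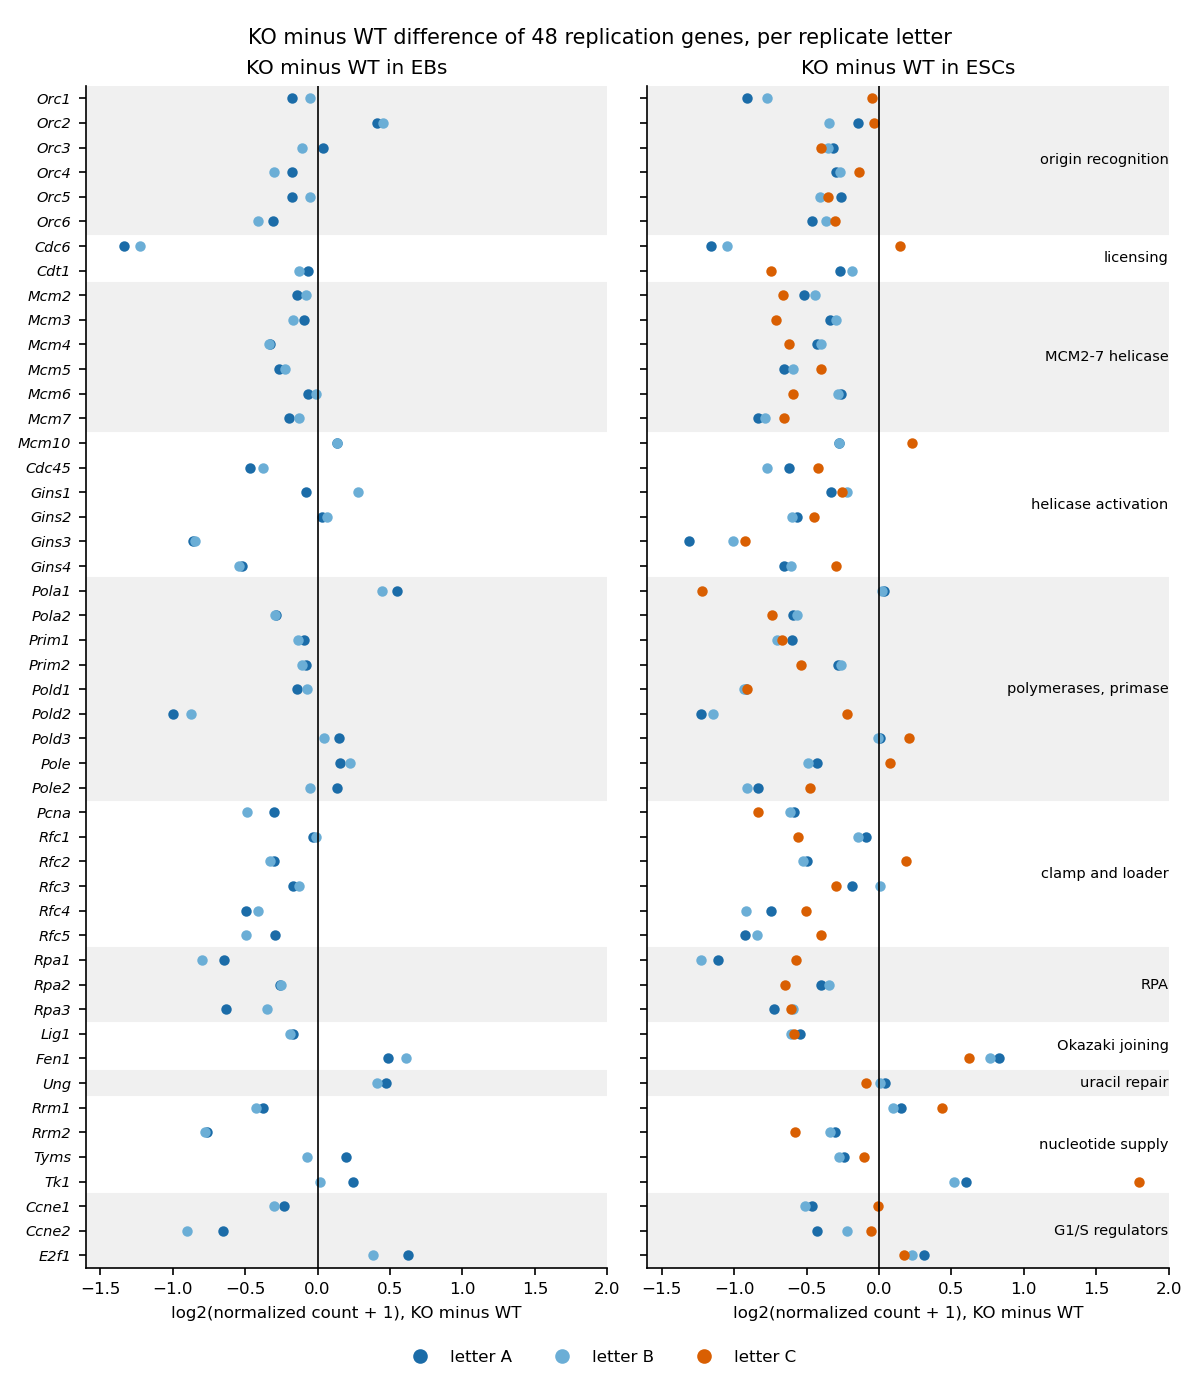
Difference KO minus WT in log2(normalized count + 1) for each of the 48 replication genes in EBs (left panel, letters A and B) and ESCs (right panel, letters A, B and C), with genes grouped by role down the page and 1 point per letter. In EBs many points lie near 0, with Cdc6 farthest left, and in ESCs most points lie left of 0, with Fen1 and Tk1 to the right in all 3 letters.

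The MCM2-7 helicase was lower in KO ESCs as a whole. Its 6 subunits, which together encircle DNA and unwind it, had log2 differences between -0.76 and -0.38 with a median of -0.51. Mcm5 had 2989.6, 2952 and 3938 in KO ESCs, against 4711, 4459 and 5191 in WT ESCs. Mcm2 had 3351, 3176 and 2483 in KO ESCs, against 4803, 4323 and 3936 in WT ESCs. Mcm4 had 1458, 1626 and 1444 in KO ESCs, against 1959, 2142 and 2220.2 in WT ESCs. In each of these genes no KO library reached the lowest WT library. Mcm3 had 2953, 3074 and 2986 in KO ESCs, against 3731, 3781 and 4898 in WT ESCs. Mcm6 had 2794, 3138 and 2872 in KO ESCs, against 3356, 3823 and 4341 in WT ESCs. These were likewise separate, with Mcm6 at the narrowest distance between the groups. Mcm7 had 1752, 1775 and 3738 in KO ESCs, against 3120.3, 3065 and 5886 in WT ESCs. Its replicate C value in KO exceeded WT A and B, so the groups overlapped, although KO was lower within each letter, with KO to WT ratios of 0.561, 0.579 and 0.635 in A, B and C. All 6 fell in the blocked fit, with limma adjusted p values from 0.00372 for Mcm7 to 0.0285 for Mcm6. None passed without the block, where the lowest limma adjusted p was 0.0923, for Mcm4.

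Helicase activators followed in the same direction with a wider range, from -1.08 for Gins3 to -0.11 for Mcm10. Gins3, a subunit of the GINS tetramer (ENSMUSG00000031669, chromosome 8, 95633453 to 95645060, plus strand, GRCm38), was the member with the lowest log2 difference in ESCs. It had 54.4, 62.7 and 119 in KO ESCs, against 137, 127 and 227 in WT ESCs, and the KO libraries did not overlap the WT ones (log2 difference -1.08, limma adjusted p = 0.174 without the block, and 0.00726 in the blocked fit with SE 0.14). Cdc45, the factor that joins MCM2-7 and GINS in the active helicase, had 494, 510.4 and 503 in KO ESCs, against 759.7, 872 and 672 in WT ESCs. Gins4, another GINS subunit, had 435, 447 and 647 in KO ESCs, against 686, 682 and 794 in WT ESCs. Both were separate between genotypes and both fell in the blocked fit (limma adjusted p = 0.0103 and 0.0168). Gins2 had 377, 322 and 858 in KO ESCs, against 558, 489 and 1169 in WT ESCs and also fell in the blocked fit (limma adjusted p = 0.00807). Of its exon bases 67.3% lie under the opposite-strand gene Gse1, and reads of the pair cannot be told apart in these libraries. Gins1 (-0.27) and Mcm10, which stabilises the moving helicase (-0.11), passed neither fit.

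The licensing factors did not pass either fit, and both depended on replicate C. Cdc6, the ATPase that works with the origin complex to load MCM2-7, had 270.4, 294 and 719 in KO ESCs, against 607, 609.9 and 649 in WT ESCs. Letters A and B showed less than 50% of the WT level in KO, at ratios of 0.446 and 0.482, while the ratio in C was 1.11. Over all letters its log2 difference was -0.69 (limma adjusted p = 0.384, and 0.121 in the blocked fit), and without both C libraries it was -1.11 (limma adjusted p = 2.03e-05). Cdt1, its partner in loading, had 1286, 1136 and 780.4 in KO ESCs, against 1552, 1295 and 1311 in WT ESCs (limma adjusted p = 0.0670 in the blocked fit). The highest KO value of Cdt1 lay just below its lowest WT value. Its log2 difference was -0.40 with all libraries and -0.23 without both C libraries (limma adjusted p = 0.171).

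Among the origin recognition subunits, which mark the sites where MCM2-7 is loaded, log2 differences ran from -0.58 for Orc1 to -0.17 for Orc2. Orc1, the subunit whose level follows the cell cycle, had 409, 486 and 649.9 in KO ESCs, against 769.7, 832 and 672 in WT ESCs. The groups were separate, but neither fit called it (limma adjusted p = 0.205 without the block and 0.0706 with it). Orc3, with 481, 573 and 528 in KO ESCs, against 599, 732 and 698 in WT ESCs, was separate too, and fell in the blocked fit (limma adjusted p = 0.0201). Orc5 had 359.7, 411 and 825 in KO ESCs, against 432, 545 and 1054 in WT ESCs. Orc6 had 444, 504 and 1155 in KO ESCs, against 612, 649.6 and 1423 in WT ESCs. KO and WT values of these last subunits overlapped because both C libraries were far above A and B, and both genes fell in the blocked fit (limma adjusted p = 0.0276 and 0.0189). Without the WT replicate C library alone, the pooled log2 differences of Orc5 and Orc6 were 0.032 and 0.016. Orc2 and Orc4 passed neither fit.

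Polymerase and primase genes ranged from -0.92 for Pold1 to 0.071 for Pold3. Primase begins each new strand with a short RNA, and its catalytic subunit Prim1 had 511, 548 and 503 in KO ESCs, against 776, 893 and 800.4 in WT ESCs. Its partner Prim2 had 325, 401 and 344 in KO ESCs, against 396, 482 and 501 in WT ESCs. Pola2, the accessory subunit of polymerase alpha, had 514, 512 and 439 in KO ESCs, against 775, 758 and 731 in WT ESCs. Prim1 and Pola2 were separate, with narrow spread within KO, and Prim2 overlapped. All 3 fell in the blocked fit, and Pola2 came nearest to a call without the block (log2 difference -0.63 ± 0.13 SE, limma adjusted p = 0.0510). Pola1, the catalytic subunit of polymerase alpha on the X chromosome, had 1272, 1535 and 608 in KO ESCs, against 1244, 1509.8 and 1416 in WT ESCs. Only in letter C was the KO value of Pola1 below the WT value, and neither fit called it (log2 difference -0.39 with all libraries and 0.028 without both C libraries). Pold1, the catalytic subunit of the lagging-strand polymerase delta, had 1509, 1194 and 653 in KO ESCs, against 2851, 2280.0 and 1229 in WT ESCs. Its KO to WT ratio was 0.529, 0.524 and 0.531 in A, B and C, although the groups overlapped, and it fell by 0.92 in the blocked fit (SE 0.057, limma adjusted p = 0.00341). Pold2, its accessory subunit, had 731, 634 and 747 in KO ESCs, against 1715, 1403 and 869.6 in WT ESCs. The KO libraries were all below the WT ones, with a WT C library much nearer to KO than WT A or B, and the gene fell in the blocked fit (limma adjusted p = 0.0371). Pold3, a further subunit of polymerase delta, had 586, 610.3 and 869 in KO ESCs, against 583, 612 and 751 in WT ESCs (log2 difference 0.071, limma adjusted p = 0.978). Pole2, the accessory subunit of the leading-strand polymerase epsilon, had 151, 158 and 258 in KO ESCs, against 269.7, 298 and 359 in WT ESCs and fell in the blocked fit (limma adjusted p = 0.0142), while the catalytic subunit gene Pole differed by -0.28 and passed neither fit.

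PCNA, the ring that holds polymerases on DNA, and RFC, the complex that opens it, differed in how far replicate C stood apart. C exceeded the mean of A and B by 1.26 in KO and 1.49 in WT for Pcna on the log2 scale, and differed from it by -0.33 in KO and 0.11 in WT for Rfc1. Pcna had 1227, 920.0 and 2547 in KO ESCs, against 1844, 1408 and 4539 in WT ESCs. The KO to WT ratio was 0.665, 0.653 and 0.561 within letters A, B and C, while levels varied more between letters than between genotypes (log2 difference -0.68, limma adjusted p = 0.617, and 0.00608 in the blocked fit). Pcna has 2 named pseudogenes, so part of its reads may be shared. Rfc4 had 184, 189 and 422 in KO ESCs, against 310.5, 358 and 599.5 in WT ESCs. Rfc5 had 617, 698 and 2058 in KO ESCs, against 1172, 1250.3 and 2711 in WT ESCs. These loader subunits fell in the blocked fit (limma adjusted p = 0.00999 and 0.0143), and both overlap a gene on the opposite strand over 12.7% and 10.7% of their exon bases. Rfc1, Rfc2 and Rfc3 lay between -0.28 and -0.16 and passed neither fit.

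RPA held the member that passed without the block. Rpa1, the large DNA-binding subunit of RPA (ENSMUSG00000000751, chromosome 11, 75298166 to 75348324, minus strand), had 1512, 1434 and 1722 in KO ESCs, against 3269.8, 3362 and 2566 in WT ESCs. Every KO library was far below every WT library, and the mean KO to WT difference was -0.97 ± 0.15 SE on the log2 scale (limma adjusted p = 0.0316, and 0.00954 in the blocked fit). That call was not kept when any 1 of the A or B libraries of either stage was left out, with limma adjusted p values from 0.0983 to 0.153, nor with no filter on low values (0.0684), nor when only ESC libraries entered the fit (0.316). Over all alternatives the adjusted p of Rpa1 ran from 6.45e-08 in DESeq2 to that 0.316, with 0.0497 in edgeR. Rpa2, the phosphorylated middle subunit, had 645, 737 and 1239 in KO ESCs, against 852, 937 and 1943 in WT ESCs. Rpa3, the smallest, had 158, 169 and 514 in KO ESCs, against 262, 256 and 784 in WT ESCs. Both overlapped between genotypes through replicate C and both fell in the blocked fit (limma adjusted p = 0.0154 and 0.0117).

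Okazaki fragment joining split in direction. Lig1, the ligase that seals the fragments, had 1022, 1014 and 2066 in KO ESCs, against 1493, 1546 and 3109.5 in WT ESCs and fell in the blocked fit (log2 difference -0.58, SE 0.058, limma adjusted p = 0.00461). Fen1, the nuclease that trims the flap before sealing (ENSMUSG00000024742, chromosome 19, 10199132 to 10204169, minus strand), had 1799.5, 1738 and 2491 in KO ESCs, against 1014, 1019 and 1617 in WT ESCs. It was higher in every KO library than in any WT library and rose in the blocked fit (log2 difference 0.74, limma adjusted p = 0.00437, against 0.144 without the block). The transcript model Gm10143 covers 78.8% of the Fen1 exon bases on the opposite strand, so the counts of the pair are uncertain. Ung, which removes uracil from DNA, had 996, 851 and 1067 in KO ESCs, against 969, 845 and 1133 in WT ESCs, with the genotypes mixed and a log2 difference of -0.013 (limma adjusted p = 0.999).

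Nucleotide supply was also mixed. Tk1, the salvage enzyme thymidine kinase (ENSMUSG00000025574, chromosome 11, 117815526 to 117826092, minus strand), had 1029.5, 969.9 and 1908 in KO ESCs, against 679.6, 676 and 550.1 in WT ESCs. All KO libraries were above all WT libraries, most of all in letter C, and the call missed the threshold in both fits (log2 difference 0.97 ± 0.27 SE, limma adjusted p = 0.108, and 0.0508 in the blocked fit). Without both C libraries Tk1 differed by 0.56 and passed (limma adjusted p = 0.00158). Rrm2, the limiting subunit of ribonucleotide reductase, had 1233, 1229.6 and 2605 in KO ESCs, against 1519, 1551 and 3897 in WT ESCs and fell in the blocked fit (limma adjusted p = 0.0190). Without the WT replicate C library alone, its pooled log2 difference was 0.042. Rrm1, the catalytic subunit of the same enzyme, was higher in KO within each letter, at 0.15, 0.095 and 0.43 on the log2 scale in A, B and C, and passed neither fit. Tyms, thymidylate synthase, differed by -0.21, and the G1/S regulators Ccne1, Ccne2 and E2f1 by -0.33, -0.23 and 0.24, none of which passed. The directions of Tyms, Ccne1 and Ccne2 turned when WT ESC replicate C alone was left out.

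**Figure D2:**
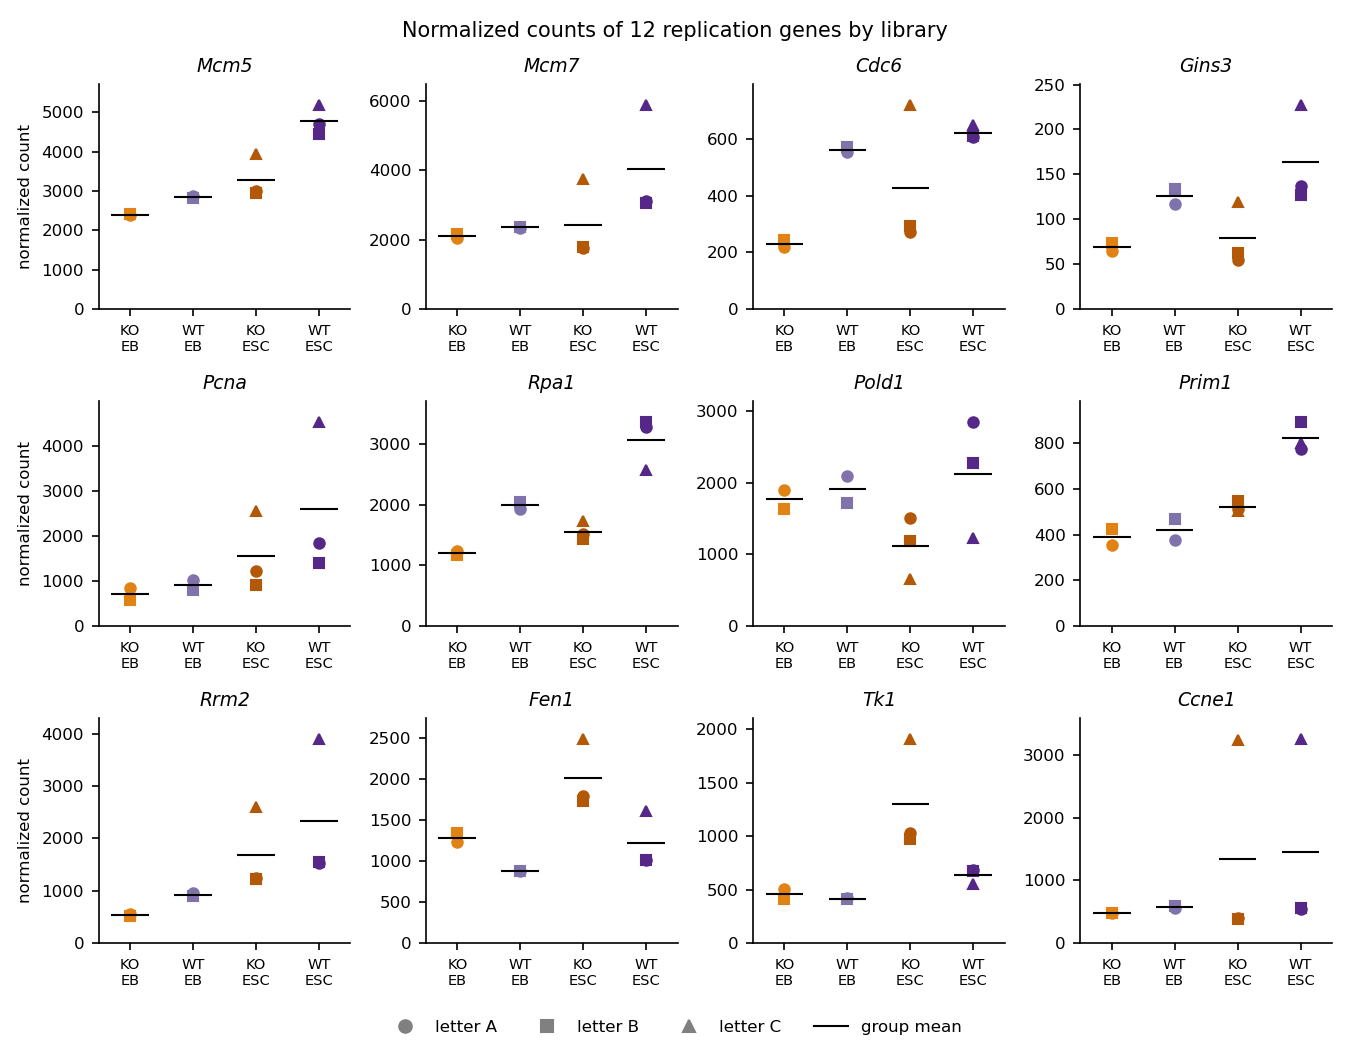
Normalized counts of 12 replication genes in KO EBs, WT EBs, KO ESCs and WT ESCs, with 1 point per library (circle A, square B, triangle C), the group mean as a line, and a linear axis from 0. In Rpa1 the KO ESC libraries (1434 to 1722) lie below all WT ESC libraries (2566 to 3362), in Fen1 they lie above, and in Ccne1 both ESC C libraries (3241 in KO and 3258 in WT) stand far above A and B.

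KO and WT EBs were compared next. The total of replication transcripts was lower in KO EBs by less than in ESCs, with the licensing factor Cdc6, the polymerase subunit Pold2, the GINS subunits Gins3 and Gins4, RPA and Rrm2 among the lower, and Fen1, Ung, E2f1 and Orc2 among the higher. The summed normalized count was 37695 and 38824 in KO EBs, against 42115 and 43267 in WT EBs, which is 10.5% and 10.3% lower within letters A and B. The gap depended on the scaling. As a share of reads counted in genes, the 48 made up 0.501% and 0.537% in KO EBs, against 0.516% and 0.551% in WT EBs. The median log2 difference was -0.14, against -0.018 over all genes, and 35 of 48 were below 0. Within a letter 35 and 37 of the 48 were lower in KO in A and B (51.4% and 51.5% of all genes). Without the block limma called none of the 48, where 1.84% of all genes were called, and 5 of the 48 had an unadjusted p under 0.05 (13.9% of all genes). DESeq2 called 1, Rpa1 (9.83% of all genes), and edgeR none (1.78%). The blocked fit called 8 lower and 4 higher, against 13.4% and 9.27% of all genes. Complete separation downward held for 24 of the 48 (38.9% of all genes) and upward for 7 (36% of all genes). Without the ESC replicate C libraries, limma called 18 lower and 5 higher in EBs (27.9% and 24.1% of all genes).

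Lower members in EBs came from several roles. Cdc6 had 219 and 243 in KO EBs, against 554 and 569.9 in WT EBs. Both KO values were under 50% of either WT value and this was the lowest log2 difference of the 48 in EBs (log2 difference -1.28 ± 0.43 SE), yet it missed the threshold (limma adjusted p = 0.216, and 0.0514 in the blocked fit). Pold2 had 720.4 and 659.7 in KO EBs, against 1443 and 1211 in WT EBs, again with a wide gap and no call (log2 difference -0.94, limma adjusted p = 0.204, and 0.0597 in the blocked fit). The SE in these EB comparisons also draws on the spread between ESC letters, since the fit pools all groups. Without both ESC C libraries Cdc6 and Pold2 passed in EBs (limma adjusted p = 8.84e-06 and 0.000369).

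Of the 8 that fell in the blocked fit, Rrm2 had 561 and 519.6 in KO EBs, against 955 and 892 in WT EBs, a log2 difference of -0.77 (limma adjusted p = 0.00848). Gins3 had 64.3 and 73.9 in KO EBs, against 117 and 133 in WT EBs. Gins4 had 387 and 392 in KO EBs, against 556 and 571 in WT EBs. In each of these genes both KO libraries were well below both WT libraries. Rpa1 had 1232 and 1177 in KO EBs, against 1925 and 2045 in WT EBs (log2 difference -0.72, limma adjusted p = 0.0413 in the blocked fit and 0.117 without it). Rpa3 had 113 and 122 in KO EBs, against 175 and 156 in WT EBs. Cyclin E2, a partner of Cdk2 like cyclin E1, had 95.3 and 95.9 in KO EBs, against 150.2 and 179.9 in WT EBs (Ccne2, log2 difference -0.77, limma adjusted p = 0.0261 in the blocked fit). Of the Ccne2 exon bases 17.4% lie under Ints8 on the other strand. Orc6 had 359 and 385 in KO EBs, against 444 and 514 in WT EBs. Pcna had 836 and 573 in KO EBs, against 1031 and 804 in WT EBs. Pcna overlapped between genotypes because its A libraries exceeded its B libraries in both.

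Higher members in EBs were fewer. Fen1 had 1232 and 1337 in KO EBs, against 880.3 and 876 in WT EBs and rose in the blocked fit (log2 difference 0.55, limma adjusted p = 0.0149). Ung had 988 and 844 in KO EBs, against 712 and 634 in WT EBs, and E2f1, the founding member of the E2F transcription factors, had 423 and 327 in KO EBs, against 274 and 250.5 in WT EBs. Both rose in the blocked fit (limma adjusted p = 0.0193 and 0.0291), with KO libraries above both WT libraries. Orc2 had 888 and 1085 in KO EBs, against 668 and 793 in WT EBs and rose in the blocked fit too (limma adjusted p = 0.0370), while 29.8% of its exon bases lie under Nif3l1 on the other strand. Pola1 had 749 and 913 in KO EBs, against 512 and 671 in WT EBs, and passed neither fit (limma adjusted p = 0.763, and 0.334 in the blocked fit). The MCM2-7 subunits lay between -0.33 and -0.039, with none called in either fit. Tk1, higher in KO ESCs, differed by 0.13 in EBs (limma adjusted p = 1). The members that neither fit called ran from -1.28 for Cdc6 to 0.50 for Pola1.

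Beside the endoderm markers given above, the 18 fibroblast and matrix markers summed to 14956 and 15101 in KO EBs, against 45456 and 43958 in WT EBs. Sparc alone had 1247 and 1194 in KO EBs, against 29366 and 27978 in WT EBs. Over the 18 the median log2 difference KO minus WT was -0.33. Limma without the block called 1 lower and none higher (1.84% of all genes in either direction). Complete separation was downward for 11 and upward for 3 (38.9% and 36% of all genes). The part of endoderm and fibroblast markers in the EB differences was not tested. The 25 genes of G2 and mitosis, a measure of other cell cycle phases, had a median log2 difference KO minus WT of -0.45 in EBs, with 9 lower and none higher in the blocked fit (13.4% and 9.27% of all genes), and of -0.46 in ESCs, with 13 lower and none higher (15.3% and 14% of all genes). Limma without the block and edgeR called none of the 25 at either stage. An unadjusted p under 0.05 was found for 6 in EBs and 10 in ESCs (13.9% and 17.2% of all genes). DESeq2 called 2 lower in EBs and 4 lower in ESCs (9.83% and 12.4% of all genes in either direction).

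The size of the KO effect was then compared between the stages, whose libraries are distinct. In 34 of the 48 genes the log2 difference was below 0 at both stages (34.3% of all genes), and in 34 its absolute size was larger in ESCs than in EBs (48.7% of all genes). Complete separation downward at both stages was found for 9 genes, against 5.68% of all genes: the helicase subunits Mcm3, Mcm4 and Mcm5, the activators Cdc45, Gins3 and Gins4, the polymerase subunits Pola2 and Pold2, and Rpa1. Fen1 was the 1 gene with complete separation upward at both (5.91% of all genes). In the blocked fit 7 genes fell at both stages, against 6.06% of all genes (Gins3, Gins4, Orc6, Pcna, Rpa1, Rpa3 and Rrm2).

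The difference of the KO effects, EBs minus ESCs, had a median of 0.27 over the 48, against -0.0050 over all genes, where a positive value means a smaller reduction, or a larger increase, in EBs. Without the block limma called none of the 48 for this difference (0.475% of all genes), and none had an unadjusted p under 0.05 (8.55% of all genes). DESeq2 and edgeR called none (4.9% and 0.532% of all genes). The blocked fit called 4 positive and none negative (2.81% and 4.99% of all genes), and limma without both C libraries called 13 positive and 3 negative (16.3% and 19.9% of all genes). Pold1 differed by 0.81 (limma adjusted p = 0.0144 in the blocked fit). It had 1904 and 1631 in KO EBs, against 2099 and 1715 in WT EBs, a smaller gap than in ESCs. Mcm7 had 2051 and 2158 in KO EBs, against 2349.8 and 2355 in WT EBs, with a difference of effects of 0.60 (limma adjusted p = 0.0326). Prim1 had 353 and 425 in KO EBs, against 376 and 467 in WT EBs. Gins2 had 371 and 384 in KO EBs, against 362 and 368 in WT EBs. Their differences of effects were 0.55 and 0.58 (limma adjusted p = 0.0471 and 0.0480 in the blocked fit). Genotypes overlapped in EBs for Pold1 and Prim1 and did not for Mcm7 and Gins2.

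**Figure D3:**
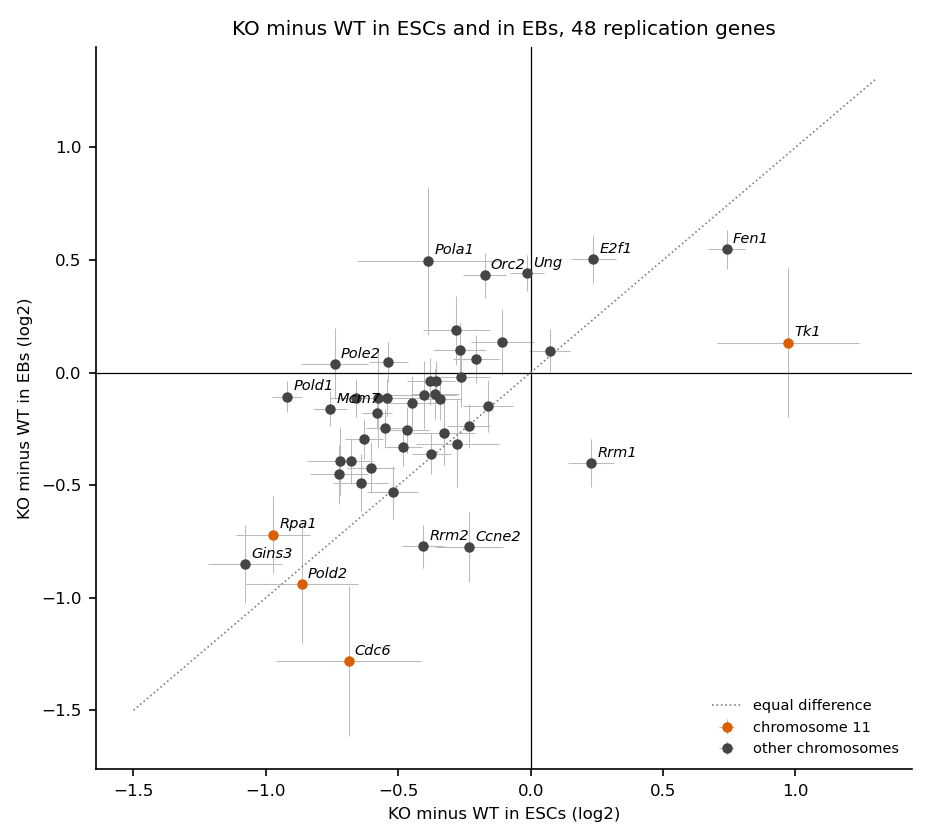
Log2 difference KO minus WT in ESCs (horizontal) and in EBs (vertical) for the 48 replication genes, with bars of 1 SE from the blocked fit, orange for the 4 genes on chromosome 11, and a dotted line of equal difference. Rpa1, Pold2, Gins3 and Cdc6 lie low at both stages, Fen1 lies high at both, and most other genes lie left of 0 and closer to 0 in EBs than in ESCs.

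Position in the genome moved with part of this pattern. Cdc6, Pold2, Rpa1 and Tk1 lie on chromosome 11, where the genes outside the list had a median log2 difference KO minus WT of -0.44 in EBs and -0.23 in ESCs. On the other chromosomes the medians ran from -0.18 to 0.095 in EBs and from -0.16 to 0.10 in ESCs. The 4 members on chromosome 11 had medians of -0.83 in EBs and -0.78 in ESCs. Of the 4, Tk1 went the other way, at 0.13 in EBs and 0.97 in ESCs. Without the 4 the median of the remaining members was -0.13 in EBs and -0.39 in ESCs. Copy number was not measured, and the part of the chromosome in the values of Cdc6, Pold2, Rpa1 and Tk1 was not tested.

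Members with and without a match to the E2F-type spellings were set side by side as a description. In EBs the median log2 difference KO minus WT was -0.11 with a match (15 genes, 12 below 0) and -0.26 without (25 genes, 18 below 0). In ESCs it was -0.55 with a match (14 below 0) and -0.38 without (21 below 0).

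EBs were then set against ESCs, using the same libraries as the genotype comparisons, so the contrasts are not independent of those above. Between WT EBs and WT ESCs, with all libraries, the median log2 difference was below 0 in each of the 11 roles. It was lowest for nucleotide supply (-0.89), the G1/S regulators (-0.78) and the origin recognition subunits (-0.77). It was highest for licensing (-0.28) and the clamp with its loader (-0.30). This order depended on replicate C. Without both C libraries nucleotide supply was still lowest (-0.72), followed by RPA (-0.64) and the helicase (-0.62). The origin recognition subunits were then at -0.41, and the G1/S regulators were the highest role, at 0.046. The summed normalized count of the 48 genes was 37.1% lower in WT EBs than in WT ESCs, and 30.8% lower when only letters A and B of the ESCs were used. The median log2 difference was -0.57, against 0.092 over all genes, and 47 of the 48 were below 0. Every EB library was below every ESC library for 35 of the 48 (19.4% of all genes), and for none was every EB library above (23.2% of all genes).

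Limma without the block called 2 of the 48 lower in WT EBs, where 2.48% of all genes were called in either direction and 0.475% lower. Mcm6 had 1869 and 2177 in WT EBs, against 3356, 3823 and 4341 in WT ESCs (log2 difference -0.92 ± 0.18 SE, limma adjusted p = 0.0440). Prim1 had 376 and 467 in WT EBs, against 776, 893 and 800.4 in WT ESCs (log2 difference -0.97 ± 0.17 SE, limma adjusted p = 0.0307). For both genes the stages did not overlap, and both calls were lost without any 1 of the A or B libraries (limma adjusted p up to 0.450 for Mcm6 and 0.389 for Prim1, the highest over all alternatives, with 4.10e-05 and 3.18e-06 in DESeq2 the lowest). DESeq2 called 14 lower and none higher (9.66% of all genes in either direction), edgeR called Prim1 alone (2.78%), and limma without both C libraries called 33 lower and none higher (23.7% and 22.5% of all genes). The blocked fit called 32 lower and none higher (16.7% and 21.3% of all genes). Letters were fitted within a stage, so between stages the block pairs nothing and only takes the spread between letters out of the error, and its calls for EBs against ESCs are given below only where another fit gave the opposite direction.

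Named by role, Pcna had 1031 and 804 in WT EBs, against 1844, 1408 and 4539 in WT ESCs (log2 difference -1.32 ± 0.58 SE, limma adjusted p = 0.352, and -0.82 with 0.0147 without both C libraries). Pola1 had 512 and 671 in WT EBs, against 1244, 1509.8 and 1416 in WT ESCs (log2 difference -1.24, limma adjusted p = 0.161, and 0.000390 without both C libraries). Tyms, the enzyme that makes dTMP, had 261 and 322 in WT EBs, against 544, 579 and 1163 in WT ESCs (log2 difference -1.30, limma adjusted p = 0.228, and 0.000159 without both C libraries). Stages were separate in these 3 genes, with the ESC replicate C values far above A and B for Pcna and Tyms. Pole2 had 129 and 147 in WT EBs, against 269.7, 298 and 359 in WT ESCs. Gins1 had 229.9 and 221 in WT EBs, against 416, 425 and 599.5 in WT ESCs. Limma adjusted p values were 0.0877 and 0.0836 with all libraries, and 0.000120 and 0.000313 without both C libraries. Pold2 was the 1 gene with a positive value, with 1443 and 1211 in WT EBs, against 1715, 1403 and 869.6 in WT ESCs (log2 difference 0.048, limma adjusted p = 0.944), and without both ESC C libraries it was -0.23.

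In KO cells the median of the same contrast was closer to 0. The sum of the 48 genes was 25.6% lower in KO EBs than in KO ESCs, and 16.5% lower against ESC letters A and B. The median log2 difference was -0.36, against 0.065 over all genes, and every EB library was below every ESC library for 25 of the 48 (20.5% of all genes) and above for 1, Pold1 (21.2%). Without the block limma called none of the 48 (0.805% of all genes), 11 had an unadjusted p under 0.05 (13.5% of all genes), edgeR called none (1.22% of all genes) and DESeq2 called 5 lower (8.99%). Limma without both C libraries called 22 lower and 4 higher, Mcm7, Rfc4, Rfc5 and Ccne1 (26% and 21.3% of all genes). The blocked fit, with the same limit as in WT, called 22 lower and 1 higher (18.4% and 19.5% of all genes). In both genotypes every EB library was lower for 24 of the 48 (9.14% of all genes).

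Nucleotide supply had the lowest role median in KO EBs against KO ESCs, -1.24. Rrm2 had 561 and 519.6 in KO EBs, against 1233, 1229.6 and 2605 in KO ESCs (log2 difference -1.55, limma adjusted p = 0.198, and 5.42e-06 without both C libraries). Tk1 had 502 and 413 in KO EBs, against 1029.5, 969.9 and 1908 in KO ESCs (log2 difference -1.44, limma adjusted p = 0.0742, and 3.77e-05 without both C libraries). Rrm1 had 807 and 889 in KO EBs, against 1383, 1472 and 2183 in KO ESCs (log2 difference -0.96). In all 3 the EB libraries were below all ESC libraries, with or without replicate C. Pold1, with every EB library above every ESC library, had 1904 and 1631 in KO EBs, against 1509, 1194 and 653 in KO ESCs (log2 difference 0.74, limma adjusted p = 0.536). Without both C libraries its difference was 0.39 (limma adjusted p = 0.0681).

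Replicate C decided the direction for several genes between stages. Beside those described below, the sign turned in KO for Gins3 (-0.10 with both C libraries, 0.23 without), Orc4, Rfc1, Rfc3, Rfc4, Rfc5, Pold2 and Pole. In WT it turned for Pold2, Rfc3 (-0.26 with both C libraries, 0.15 without) and Ccne2. Ccne1 differed by -0.72 in KO and -0.78 in WT with all libraries, and by 0.30 and 0.077 without both C libraries. In KO this turned a call: Ccne1 was lower in the blocked fit (limma adjusted p = 0.0132) and higher without both C libraries (limma adjusted p = 0.0108). In WT it was lower in the blocked fit (limma adjusted p = 0.0103) and not called without both C libraries (limma adjusted p = 0.427). In KO, Gins2 differed by -0.32 with them and 0.11 without (limma adjusted p = 0.781 and 0.398, and 0.0334, lower, in the blocked fit). Mcm7 differed by -0.11 with them and 0.25 without (limma adjusted p = 0.906 and 0.0108). Over the 48 genes the median without C was -0.22 in KO and -0.46 in WT, against -0.055 and -0.038 over all genes.

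**Figure D4:**
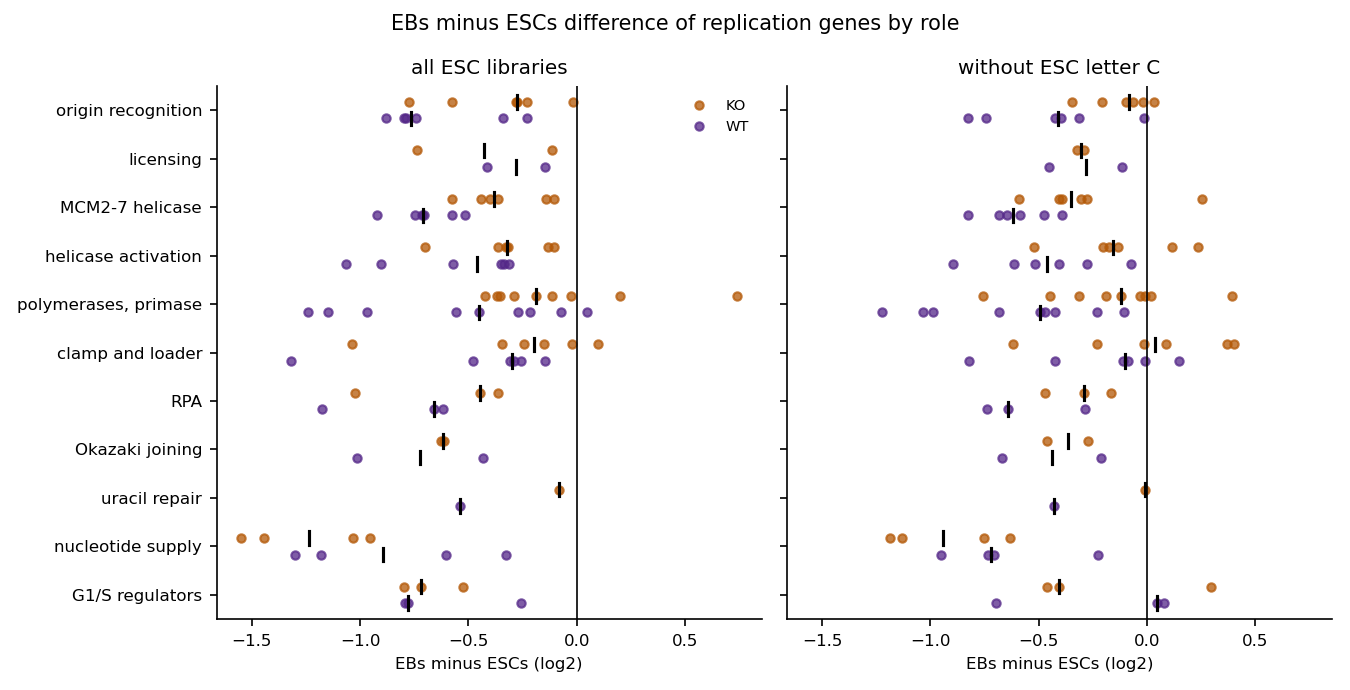
Log2 difference EBs minus ESCs of each replication gene by role, in KO (orange) and WT (purple), using all ESC libraries (left) and without ESC letter C (right), with 1 point per gene and the median of each role as a black bar. The medians lie below 0 in every role with all libraries, and without letter C the KO median of the clamp and loader and the WT median of the G1/S regulators lie slightly above 0.

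Levels between genes were compared per kilobase of exon, as normalized counts per kilobase (mean ± SD). In KO EBs Mcm3 (607 ± 14.4, n = 2) and Mcm5 (601 ± 5.30) led the 48, and in WT EBs Mcm5 (714 ± 9.33, n = 2) and Pold2 (700.1 ± 86.6) did. In KO ESCs Fen1 (829.8 ± 173, n = 3), Mcm5 (825 ± 140.0) and Mcm3 (801 ± 16.7) came first. In WT ESCs the order opened with Mcm5 (1199 ± 93.1, n = 3), Mcm3 (1103 ± 176) and Pcna (1082 ± 707). In each group these leading genes lay within their spread of each other, so their order is not resolved. The rank of Fen1 was 3 in KO EBs, 11 in WT EBs, 1 in KO ESCs and 13 in WT ESCs. Gins3 was at the bottom in KO EBs, WT EBs and KO ESCs (29.1 ± 13.1 in KO ESCs), and Ccne2 in WT ESCs (59.0 ± 23.2). Per kilobase, Mcm5 exceeded 95.9% of all genes tested in WT ESCs, and Ccne2 exceeded 54.2%.

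Further genes of the same pathways, taken from lists drawn up with earlier results of these data known, were counted in the same fits. Of 28 other fork and origin genes, limma without the block called 1 lower in KO ESCs and none higher (2.38% of all genes in either direction). The blocked fit called 13 lower and 2 higher (15.3% and 14% of all genes), and the median log2 difference was -0.36. Of the 28, 8 had an unadjusted p under 0.05 (17.2% of all genes). None of the 28 was called by edgeR (2.15% of all genes), and DESeq2 called 6 lower (12.4% of all genes in either direction). The 1 called was Rnaseh2a, the catalytic subunit that removes RNA from DNA, which had 640.5, 684 and 797 in KO ESCs, against 1162, 1159 and 1571 in WT ESCs (log2 difference -0.87 ± 0.17 SE, limma adjusted p = 0.0465). All its KO libraries were below all WT libraries. In EBs limma without the block, edgeR and DESeq2 called none of the 28 (1.84%, 1.78% and 9.83% of all genes). Of the 28, 3 had an unadjusted p under 0.05 there (13.9% of all genes). The blocked fit called 3 lower and 1 higher in EBs (13.4% and 9.27% of all genes), with a median of -0.086. Rnaseh2b, a partner subunit of Rnaseh2a, fell in WT EBs against WT ESCs. It was the 1 of the 28 called there by limma without the block (0.475% of all genes lower). It had 294 and 362 in WT EBs, against 602, 658 and 853 in WT ESCs (log2 difference -1.09 ± 0.20 SE, limma adjusted p = 0.0355).

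Of 11 genes of chromatin assembly at the fork limma without the block and edgeR called none in KO against WT at either stage. In ESCs 2 of the 11 had an unadjusted p under 0.05 and DESeq2 called 2 lower (17.2% and 12.4% of all genes). In EBs none did by either measure (13.9% and 9.83% of all genes). By limma without the block, 2 of the 11 fell in WT EBs against WT ESCs (0.475% of all genes lower). In KO EBs against KO ESCs 1 fell (0.805% of all genes in either direction). Uhrf1, which brings the maintenance methyltransferase to new DNA, had 1249 and 1146 in WT EBs, against 3149, 3178 and 5412 in WT ESCs (log2 difference -1.66 ± 0.25 SE, limma adjusted p = 0.0172), and in KO cells 1085 and 1004 in KO EBs, against 2969, 2929 and 3249.5 in KO ESCs (-1.54 ± 0.25 SE, limma adjusted p = 0.0444). EB libraries were below all ESC libraries in both genotypes. Chaf1b, a subunit of the histone chaperone CAF-1, had 609 and 649 in WT EBs, against 1081, 1095 and 1139.7 in WT ESCs (log2 difference -0.81 ± 0.16 SE, limma adjusted p = 0.0453).

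For the 25 genes of the E2F and Rb families with the G1 regulators, the median log2 difference KO minus WT was -0.053 in EBs and 0.0046 in ESCs. Limma without the block called 1 of them higher and none lower at each stage (1.84% of all genes in EBs and 2.38% in ESCs, in either direction). In EBs 3 and in ESCs 5 of the 25 had an unadjusted p under 0.05 (13.9% and 17.2% of all genes). The edgeR test called 1 higher in EBs and none in ESCs (1.78% and 2.15% of all genes in either direction). DESeq2 called 2 higher at each stage and, in ESCs, 1 lower (9.83% of all genes in EBs and 12.4% in ESCs, in either direction). Cdk6, a kinase that acts on Rb in G1, was the gene called at both stages. It had 364 and 316 in KO EBs, against 85.0 and 75.8 in WT EBs (log2 difference 2.06 ± 0.28 SE, limma adjusted p = 0.0174). In ESCs it had 267, 245 and 256 in KO ESCs, against 93.0, 102 and 155 in WT ESCs (1.16 ± 0.23 SE, limma adjusted p = 0.0485). Every KO library was above every WT library at both stages.

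Of 12 further genes of nucleotide supply, limma without the block and edgeR called none in any contrast. The number with an unadjusted p under 0.05 was 2 for KO against WT EBs, 3 for KO against WT ESCs, 2 for WT EBs against WT ESCs and 3 for KO EBs against KO ESCs (13.9%, 17.2%, 14.5% and 13.5% of all genes). DESeq2 called 1 higher and 1 lower in KO ESCs and 2 lower in KO EBs against KO ESCs (12.4% and 8.99% of all genes in either direction). Their median KO minus WT was -0.26 in EBs and -0.32 in ESCs.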

How the data were processed

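RNA was sequenced from 10 libraries, and WT fibroblasts of the series were not analysed here. The deposited values are a signal, read counts per gene divided by the authors' DESeq size factors. Per the submitters' processing notes the tools were CASAVA 1.8.2, Bowtie, TopHat2 2.0.10, HTSeq 0.6.0 and DESeq with build mm10. The annotation release and strand setting are not given in the sources used here. In the deposited table, dividing each library by the value of 1 read gave whole reads for 100% of values within 0.01, and edgeR and DESeq2 used those reads. The table has 39179 gene identifiers, 37607 of them with a symbol, and 5 summary lines that were left out. Per library, reads in no gene were 34.0% to 38.8% of the sum over gene and summary lines and reads not uniquely aligned 28.7% to 46.1%.

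The main test was limma 3.58.1 (R 4.3.3) with trend and robust settings on log2(value + 1), with the 4 group means fitted over all 10 libraries (6 residual degrees of freedom), on 15781 genes with a mean of at least 10, two-sided, with Benjamini-Hochberg adjustment within each of 5 contrasts and a threshold of 0.05. A log2 difference on this scale understates the change of low genes. Alternatives were the replicate letter as a block within each stage (3 residual degrees of freedom), edgeR 4.0.16, DESeq2 1.42.0, TMM scaling, a pseudocount of 5, no filter, only the groups compared, each library left out, both ESC replicate C libraries left out and, chosen after seeing the data, the members without those on chromosome 11. The main limma fit was tested on simulated data that held no shift of replicate C, and the other fits were not tested in that way. In ESCs the deviations of same-letter KO and WT libraries from their group means correlated at 0.845, 0.828 and 0.858 for A, B and C, each over 0.1. A and B also correlated across letters (0.812 and 0.809), so the rule cannot tell pairing of A and B from the shift of C. In EBs the value was 0.369 with 2 letters, which decides nothing. The labels call the libraries biological replicates, and p-values measure the spread between them. ESC and EB libraries were separate, so KO effects at the stages share none.

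The 48 genes and the companion lists were chosen with earlier results of these data known. All 48 are accounted for, and values by library are given for those called in KO against WT at either stage without or with the block, with others for at least 1 subunit of each complex. Companion genes are named only where called, apart from single cell type markers, which were picked after their values were seen. Promoters and gene positions are from RefSeq (GRCm38.p6) and GENCODE (GRCm38). Figures used Python 3.11.15 with matplotlib 3.10.9. Libraries of fewer reads give less precise values, and 1 read was worth between 0.544 and 3.29 normalized counts.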

Additional observations from a re-analysis of the deposited data

Results flagged for a closer look

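For 4 replication genes the KO effect differed between the stages by a test of the difference itself in the blocked fit. EBs minus ESCs, the difference of log2 effects was 0.81 for Pold1, 0.60 for Mcm7, 0.58 for Gins2 and 0.55 for Prim1, with limma adjusted p values of 0.0144, 0.0326, 0.0480 and 0.0471. Without the block the limma adjusted p was 1, 1, 1 and 0.602 for the same genes in that order. That fit used all libraries. Without both ESC replicate C libraries, also without the block, the limma adjusted p was 0.0197, 0.000789, 0.0102 and 0.0528 in that order, so all but Prim1 passed. The counts of Gins2 may include reads of Gse1.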

How the results depend on the processing

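The number of the 48 genes called changed with the settings. Without any block it was 0 for KO against WT EBs, 1 for KO against WT ESCs, 2 for WT EBs against WT ESCs, 0 for KO EBs against KO ESCs and 0 for the difference of KO effects. In the same order of contrasts it was 12, 28, 32, 23 and 4 with the replicate block, and 23, 31, 33, 26 and 16 without both ESC replicate C libraries. For EBs against ESCs the block pairs nothing and only removes the spread between letters from the error. DESeq2 called 1, 10, 14 and 5 in the first 4 of these contrasts. The edgeR count was 1 for KO against WT ESCs (Rpa1) and 1 for WT EBs against WT ESCs (Prim1). With no filter on low values the count was 0 for KO against WT ESCs and 4 for WT EBs against WT ESCs. With only the groups compared it was 23 for KO against WT EBs, 0 for KO against WT ESCs and 0 for WT EBs against WT ESCs. Without the 4 members on chromosome 11 it was 0 for KO against WT ESCs, because the 1 gene called there, Rpa1, lies on that chromosome. The cause of the other changes between settings was not tested.

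Leaving out 1 library at a time gave 0 to 2 calls for KO against WT EBs, 0 to 14 for KO against WT ESCs, 0 to 12 for WT EBs against WT ESCs, 0 to 2 for KO EBs against KO ESCs and 0 to 0 for the difference of effects, with the highest count of each but the last in the absence of an ESC replicate C library. Where 1 library was left in a group, it was assumed to vary like the others. The medians kept their sign under every alternative, with leave-one-out ranges of -0.22 to -0.14, -0.59 to -0.29, -0.61 to -0.46, -0.44 to -0.22 and 0.16 to 0.35 in the order above. Without both C libraries the log2 difference reversed to 0.028 for Pola1 and 0.025 for Ung in KO against WT ESCs. In WT EBs against WT ESCs it reversed to -0.23 for Pold2, 0.15 for Rfc3, 0.077 for Ccne1 and 0.046 for Ccne2. In KO EBs against KO ESCs it reversed to 0.25 for Mcm7, 0.23 for Gins3, 0.11 for Gins2 and 0.30 for Ccne1. For the loader subunits it reversed there to 0.37 for Rfc4, 0.40 for Rfc5, 0.088 for Rfc3 and -0.014 for Rfc1. Orc4 (0.031), Pold2 (0.018) and Pole (-0.035) turned there as well, and TMM scaling gave 0.019 for Rfc4. In edgeR Ung in KO against WT ESCs was 0.023, and in DESeq2 Pold2 in WT EBs against WT ESCs was -0.0029. Leaving out 1 library at a time, log2 differences in KO against WT ESCs ran from -0.71 to 0.032 for Orc5, -0.80 to 0.016 for Orc6, -0.77 to 0.042 for Rrm2, -0.65 to 0.012 for Pola1, -0.11 to 0.18 for Pold3, -0.61 to 0.14 for Tyms, -0.12 to 0.10 for Ung, -1.34 to 0.53 for Ccne1 and -0.63 to 0.069 for Ccne2. In KO against WT EBs the range was -0.0081 to 0.27 for Tk1. In WT EBs against WT ESCs it was -0.23 to 0.26 for Pold2 and -1.21 to 0.077 for Ccne1, and in KO EBs against KO ESCs -0.29 to 0.25 for Mcm7, -0.59 to 0.11 for Gins2, -0.22 to 0.37 for Rfc4, -0.47 to 0.40 for Rfc5 and -1.23 to 0.30 for Ccne1. The shallow C libraries, with the 2 EB letters per genotype, limit the depth and precision of all contrasts.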
